A study of Homo sapiens with 31 samples.

Results

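The receptor genes for blood growth factors KIT, FLT3, CSF1R, CSF3R, CSF2RB and IL3RA were followed through ChIP-seq peak lists of the transcription factor EVI1 and its corepressor partner CTBP2 in human leukemia cells. These are 6 of 20098 protein-coding genes, chosen by name as a family, and every peak within the gene body plus 50 kb on either side was taken as lying in a gene's window. Over all 13 peak lists the windows held between 8 peaks (retroviral 4× PLASS replicate 1) and 107 peaks (untreated EVI1 replicate 2) of between 6688 and 72214 peaks per list. Merged across lists, they formed 159 regions.

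These receptors tell hematopoietic cells which lineage signals to follow. KIT, FLT3 and CSF1R are receptor tyrosine kinases, which phosphorylate themselves when their ligand brings them together. CSF3R, CSF2RB and IL3RA are cytokine receptor chains without a kinase of their own and signal through bound Janus kinases. EVI1, encoded by MECOM, binds DNA through zinc fingers and recruits CTBP2 through its PLDLS motif, and CTBP2 brings histone-modifying enzymes to the bound site.

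The study asked whether CTBP2 reaches chromatin through EVI1 and whether a competing PLDLS peptide removes it. Of its 31 samples, 13 had a peak list analysed here. Unmodified MUTZ3 cells, an acute myelomonocytic leukemia line grown with conditioned medium, gave 1 list for EVI1 and 1 for CTBP2. MOLM1, a line from chronic myeloid leukemia in blast crisis, gave 1 CTBP2 list from untreated cells that carried a doxycycline-inducible short hairpin RNA against EVI1 (pLKO tetOn), a clonal line by the study's description. MUTZ3 cells with retroviral 4× PLASS (p50MX-3xFLAG-3xNLS-4xPLASS-Zeo), a control in which the motif is altered, gave 2 CTBP2 lists. MUTZ3 cells with inducible 4× PLDLS (pCW-4xPLDLS) at 72 hours gave 2 lists for each of CTBP2 and EVI1 without doxycycline and 2 for each with doxycycline (dox). The untreated cells of that experiment carried the same construct and were bulk populations, and no library with dox alone or with an inducible 4× PLASS construct was analysed here, so the peptide and the drug cannot be told apart. The unmodified CTBP2 library was labelled as single crosslinked and the other libraries as double crosslinked with DSG. For the MOLM1 and 4× PLASS libraries a sample sheet of the study names a single crosslink instead, and which holds is not settled here.

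The lists hold no read counts, so depth is unknown. In the inducible experiment the untreated CTBP2 lists had 62232 and 56526 peaks and the dox CTBP2 lists 24588 and 23878, whereas the EVI1 lists had 51389 and 72214 peaks without dox and 53806 and 47599 with it. Peak heights below are fold enrichment over input at the summit, and percentiles are ranks of that value within 1 list. The inducible experiment had a single input library with dox and a single one without, so replicates had no input of their own. Where each condition was set against its own input, treatment and input cannot be told apart. A site means an interval called in both untreated libraries of a target, and 2 intervals overlap when they share at least 1 bp. With 2 libraries in each group an exact permutation test cannot reach a p below 0.33, and nothing in the labels says that replicates came from separate cultures. IL3RA lies in the pseudoautosomal region of the X chromosome. The 5 lists from outside the inducible experiment had 0 peaks in that region, while the other lists had between 53 and 270, so IL3RA values exist only for the inducible experiment, and they are uncertain because reads could be split with the copy on the Y chromosome.

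Reference sequence (GRCh37, plus strand) around the summit of untreated replicate 1 is shown for the strongest distal EVI1 region of 4 genes and the strongest distal CTBP2 region of CSF2RB, because the values below turn on them. Each is 61 bp long, and capitals mark matches to short motifs on either strand. GATGAG is the motif of the second zinc finger domain of EVI1. AGATAA is a form of the site that GATA factors bind. GGAAGT is a form of the site that ETS factors bind. Shorter or other forms of these sites were not searched or marked. The motif of the first zinc finger domain of EVI1, CAAGATA, which can overlap AGATAA, had no match in these. For CSF2RB the summit is that of CTBP2 and capitals mark AGGTG.
KIT +34.4 kb, chr4:55557851-55557911: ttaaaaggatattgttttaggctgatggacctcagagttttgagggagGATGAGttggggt
FLT3 +68.8 kb, chr13:28605749-28605809: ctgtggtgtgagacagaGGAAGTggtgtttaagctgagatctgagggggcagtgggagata
CSF1R +31.4 kb, chr5:149461528-149461588: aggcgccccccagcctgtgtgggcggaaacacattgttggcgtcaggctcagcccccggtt
IL3RA −43.8 kb, chrX:1411664-1411724: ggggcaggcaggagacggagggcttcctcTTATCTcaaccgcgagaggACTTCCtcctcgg
CSF2RB −40.6 kb, chr22:37268958-37269018: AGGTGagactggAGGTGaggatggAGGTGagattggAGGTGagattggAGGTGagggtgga

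The motifs were rare at summits in general. AGATAA lay in the 61 bp of 3 of 58 EVI1 sites in the windows and of 2.63% of all 39661 EVI1 sites with sequence. GGAAGT lay in 4 of 58 against 9.93%, GATGAG in 2 of 58 against 5.04%, and CAAGATA in 0 of 58 against 0.371%. Around the CTBP2 summits of the 51 CTBP2 sites, GGAAGT occurred in 4 against 10.3% of 36848 sites, and each of CAAGATA (0.258% of all), GATGAG (3.76%) and AGATAA (1.56%) in 1. The windows therefore held few sites with any of the 4 motifs.

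CSF1R, the receptor of macrophage colony-stimulating factor, was the most densely bound of the 6. Its window (gene at chr5:149432854-149492935, minus strand, ENSG00000182578) held 29 and 22 CTBP2 peaks without dox and 11 and 10 with it, and 23 and 28 EVI1 peaks without dox against 24 and 19 with it. The window contained 18 CTBP2 sites, or 11.2 per 100 kb, which put it at percentile 97.5 of all protein-coding genes, whose median was 2.34. The others lay at percentile 88.9 (IL3RA), 76.7 (CSF3R), 68.1 (CSF2RB), 61 (KIT) and 52.2 (FLT3). CSF1R was thus high among genes in CTBP2 density, and FLT3 and KIT lay near the middle.

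**Figure D1:**
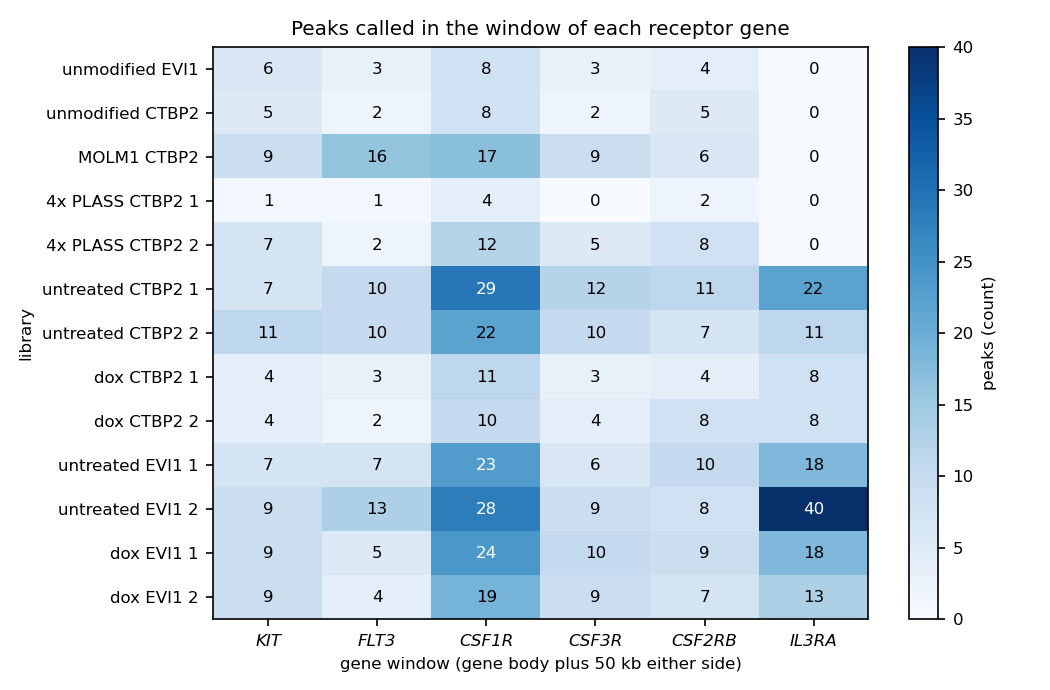
Number of peaks called in the gene body plus 50 kb of each receptor gene (columns) in each of the 13 lists (rows), with the count printed in each cell and shown by colour. The CSF1R column runs from 4 to 29 peaks, and the IL3RA column is 0 in the 5 lists from outside the inducible experiment.

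All 6 genes had at least 1 CTBP2 site and at least 1 EVI1 site in their windows, as did 86.0% and 87.1% of all protein-coding genes. Their own promoters, taken as 1 kb on either side of the gene's 5′ end, were called for CTBP2 in both untreated libraries for 4 of 6 genes (52.5% of all genes) and for EVI1 for 4 of 6 (55.9%). CTBP2 remained called there in all 4 libraries of the inducible experiment for 3 of 6 genes, where the share over all genes was 23.9%. In MOLM1 the promoter of 3 of 6 was called (45.5%). Of the 51 CTBP2 sites in the windows, 9 (17.6%, Wilson 95% interval 9.57% to 30.3%) overlapped any protein-coding promoter, against 26.5% of all sites on chromosomes 1 to 22 and X. Most CTBP2 sites near these genes were therefore distal, as in the lists as a whole. Intervals on shares cover counting error only.

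Among the receptor tyrosine kinases, KIT (chr4:55523434-55606949, plus strand, ENSG00000157404), the stem cell factor receptor, was bound around its start and in its first intron. In a region over the start and coding exon 1, named +0.8 kb, CTBP2 fold enrichment was 16.7 and 6.12 without dox and 4.19 and 4.23 with it, and EVI1 was 5.04 and 14.0 without dox and 6.37 and 7.60 with it. The CTBP2 values did not overlap between the groups and the EVI1 values did, but the region is 2587 bp wide. Untreated CTBP2 replicate 1 had its summit at +0.8 kb, outside the peak of dox replicate 2. The CTBP2 values are therefore not all of the same peak. The peaks of dox replicate 2 and of unmodified CTBP2 (4.80) lay more than 1 kb downstream of the 5′ end, so the promoter as defined here was not called in those libraries. The start of the canonical KIT transcript lies 0.69 kb downstream of that 5′ end, so this depends on the start used. The peak of 4× PLASS replicate 2 (6.93) reached the promoter, and MOLM1 and unmodified EVI1 had no peak in the region. In intron 1, the +31.3 kb region was called in all 13 lists. There CTBP2 was 9.21 and 15.1 without dox and 8.33 and 10.7 with it, and EVI1 was 16.7 and 13.1 without dox and 13.8 and 17.5 with it, so neither target separated by treatment. MOLM1 had a CTBP2 value of 19.1 there, near percentile 95 of its list.

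The KIT regions at +26.6 and +34.4 kb in the same intron were each called in 12 lists. At +34.4 kb, where the sequence holds GATGAG, CTBP2 was 12.1 and 8.26 without dox and 5.01 and 6.74 with it. The dox values were both lower than the untreated values. At 2 KIT regions CTBP2 was called in both untreated libraries and in no dox library: +89.2 kb, past the gene's 3′ end, with 6.92 and 6.71, and +12.7 kb with 5.97 and 6.34. At +89.2 kb EVI1 was 11.5 in untreated replicate 1, not called in untreated replicate 2, and 6.21 and 4.97 with dox. At +12.7 kb no EVI1 list had a peak.

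FLT3 (chr13:28577411-28674729, minus strand, ENSG00000122025), the receptor of FLT3 ligand on early progenitors, was bound mainly at a single intragenic region. In intron 15, at +68.8 kb, EVI1 was 22.7 and 51.6 without dox and 33.3 and 26.9 with it, between percentiles 97.1 and 99.5 of its lists. CTBP2 there was 15.6 and 17.6 without dox and 7.27 and 8.42 with it. The CTBP2 groups were separate while the EVI1 groups overlapped. Unmodified EVI1 had a value of 18.8 at this place, and unmodified CTBP2 had no peak. The sequence shown is centred on the EVI1 summit of untreated replicate 1 (22.7). The summit of untreated replicate 2 (51.6), at chr13:28605883, lay outside it.

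The FLT3 promoter was called for CTBP2 in MOLM1 (10.9) and in untreated replicate 1 (7.98), and for EVI1 in untreated replicate 2 alone (3.92). The FLT3 window held 16 MOLM1 peaks and 2 unmodified MUTZ3 CTBP2 peaks, of lists with 64569 and 16836 peaks, and 1 of the 16 overlapped an unmodified peak (18.7% of all MOLM1 peaks). In no other list was there a peak at 5 of the 16, and 31.1% of all MOLM1 peaks had none. Those 5 included introns 3, 4 and 9 of FLT3. At 2 regions CTBP2 was called in both untreated libraries and in no dox library: +140.2 kb (6.25 and 4.40) and −23.9 kb (4.83 and 4.45), both intergenic. EVI1 had no dox peak at either. The region of the window called in all 13 lists, at −38.9 kb, was at the promoter of the neighbouring PAN3.

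At CSF1R the strongest region lay at +31.4 kb from the gene's annotated 5′ end, in intron 1 of the canonical transcript and 4.58 kb downstream of the start of that transcript. It was called in all 13 lists. CTBP2 was 33.1 and 24.5 without dox and 10.9 and 13.4 with it, and EVI1 was 21.4 and 44.7 without dox and 29.3 and 22.5 with it. The CTBP2 groups were well apart and the EVI1 groups overlapped. Within the lists, however, the CTBP2 peak stayed near the top, at percentiles 99.4 and 99.1 without dox and 96.4 and 96.9 with it. MOLM1 had a value of 24.8 there, unmodified CTBP2 12, unmodified EVI1 12.5, and 4× PLASS 7.08 and 15.0.

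Both starts of CSF1R were bound. The region at the gene's 5′ end had CTBP2 values of 16.3 and 12.7 without dox and 4.05 and 5.43 with it, and EVI1 values of 12.5 and 27.8 without dox and 9.18 and 10.6 with it. For both targets, both dox values were below both untreated values there. The region was not called in MOLM1. A smaller region at −1.0 kb was called in untreated libraries alone, with CTBP2 at 4.28 in replicate 1 and EVI1 at 4.33 and 6.84. The region at the canonical start, +26.8 kb, had CTBP2 values of 10.8 and 13.2 without dox and 2.87 and 4.98 with it, and it was called in MOLM1 at 11.9. Hence MOLM1 and MUTZ3 lists shared the downstream start and not the upstream one.

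The CSF1R window also reaches into PDGFRB, the neighbouring receptor of platelet-derived growth factor, so regions there cannot be assigned to either gene from position alone. At −46.7 kb, in all 13 lists, CTBP2 was 18.1 and 14.1 without dox and 7.63 and 5.63 with it. At 5 regions of the window CTBP2 was called in both untreated libraries and in neither dox library, the strongest by untreated replicate 1 being −31.7 kb (6.03 and 6.60) in intron 1 of PDGFRB and −42.6 kb (5.66 and 3.87) at the PDGFRB promoter. At −42.6 kb EVI1 was called in both dox libraries and at −31.7 kb in neither.

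**Figure D2:**
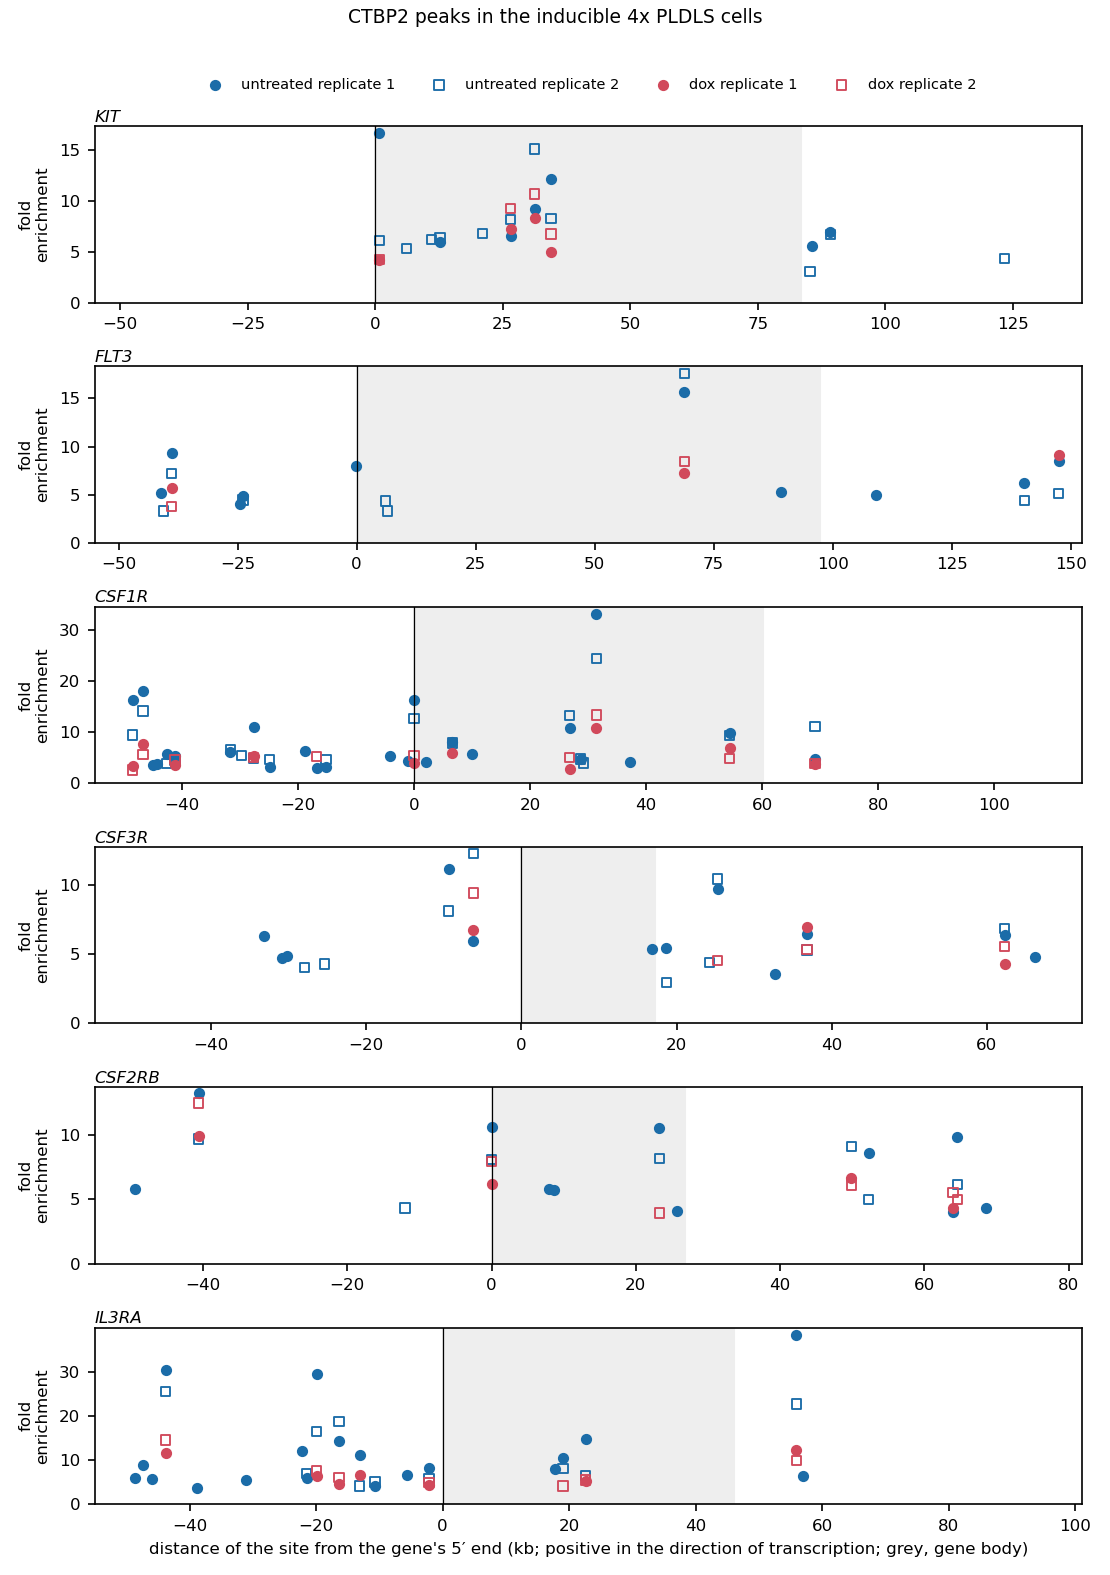
CTBP2 fold enrichment over input (vertical axis) at each region of the 6 windows against its distance in kb from the gene's 5′ end (horizontal axis, positive along transcription, gene body in grey), for untreated (blue) and dox (red) replicates 1 (filled circles) and 2 (open squares). A region without a peak in a library has no point. At CSF1R +31.4 kb the untreated values are 33.1 and 24.5 and the dox values 10.9 and 13.4, while at CSF2RB −40.6 kb untreated (13.2 and 9.67) and dox (9.87 and 12.5) values overlap.

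Among the cytokine receptor chains, CSF3R (chr1:36931644-36948879, minus strand, ENSG00000119535), the granulocyte colony-stimulating factor receptor, had no CTBP2 peak at its promoter in MUTZ3 lists. The promoter had a MOLM1 CTBP2 value of 7.58, and EVI1 values of 4.38 and 4.24 with dox only. It was the single region among 52 EVI1 sites of both dox libraries in the windows with no untreated EVI1 peak, and 4.22% of all such sites had none.

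At −9.4 kb, upstream of CSF3R, CTBP2 was 11.2 and 8.12 without dox and was not called in either dox library, whereas EVI1 was 8.10 and 12.6 without dox and 8.47 and 6.69 with it. In untreated replicate 1 it was the strongest distal CTBP2 region of the window, at percentile 83.2 of the list, and in replicate 2 the +25.3 kb region (10.4) was higher. At +36.8 kb, in intron 1 of the neighbouring OSCP1, EVI1 was 9.62 and 12.3 without dox and 22.6 and 24.4 with it. Both dox values were above both untreated values for EVI1, and CTBP2 (6.46 and 5.30 without dox, 6.96 and 5.32 with it) did not separate. This region was chosen after its values were seen. At +18.7 kb, an intergenic region at the promoter of MRPS15, CTBP2 was 5.46 and 2.95 without dox and was not called with it, and EVI1 was called in all 4 libraries.

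CSF2RB (chr22:37309670-37336481, plus strand, ENSG00000100368), the shared beta chain of the receptors for IL-3, IL-5 and GM-CSF, had a bound promoter in 11 lists. CTBP2 was 10.6 and 8.06 without dox and 6.17 and 7.93 with it, and EVI1 was 8.94 and 10.7 without dox and 9.57 and 8.76 with it. The CTBP2 groups did not overlap, by a margin smaller than the spread within either group.

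The −40.6 kb region, in intron 6 of the neighbouring NCF4, had high CTBP2 and low EVI1. CTBP2 was 13.2 and 9.67 without dox, 9.87 and 12.5 with it, 12 in unmodified cells and 11.0 and 16.9 with 4× PLASS. EVI1 was 3.35 and 4.56 without dox, and with dox it was not called in replicate 1 and was 3.24 in replicate 2. In percentile terms CTBP2 lay between 84.6 and 97.9 in the MUTZ3 lists, and EVI1 lay at 5.43 and 30.8 without dox. The sequence shown for it is a tandem array with 5 copies of AGGTG, a run of letters noticed after the sequence was read. At least as many lay in the same window of 23 of 36848 CTBP2 sites (0.0624%). Because the run and the number of copies were taken from this sequence, that share does not measure how unusual the region is. The strongest distal EVI1 region in untreated replicate 1 was +64.6 kb, with 10.1 and 14.2 without dox and 9.46 and 9.96 with it, where CTBP2 was 9.84 and 6.12 without dox and was called with dox in replicate 2 alone (4.98). At +52.3 kb CTBP2 was 8.61 and 4.96 without dox and absent from both dox lists.

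IL3RA (chrX:1455509-1501582, plus strand, ENSG00000185291), the alpha chain of the IL-3 receptor, adjoins CSF2RA, the alpha chain of the GM-CSF receptor. The strongest distal region of its window, at −43.8 kb, lay in intron 3 of CSF2RA. EVI1 was 39.1 and 55.4 without dox and 38.0 and 30.5 with it, and CTBP2 was 30.4 and 25.6 without dox and 11.6 and 14.5 with it. Both targets were above percentile 97 in every library of the inducible experiment, from 97.2 to 99.6. At the promoter of SLC25A6, +55.9 kb, CTBP2 was 38.3 and 22.6 without dox and 12.3 and 9.90 with it, and EVI1 was lower, at 9.50 and 13.7 without dox. At both places the CTBP2 groups were separate. At −43.8 kb the EVI1 groups did not overlap either, by a margin smaller than the spread within either EVI1 group. In the region over the IL3RA start, named −2.1 kb, CTBP2 was 8.22 and 5.79 without dox and 4.22 and 4.87 with it, but the summit of untreated replicate 1 lay upstream of the start and the others at it, so these are not values of the same peak. EVI1 in that region, by the highest peak of each library, was 16.2 and 22.6 without dox and 11.2 and 9.29 with it. CTBP2 was called in both untreated libraries and no dox library at −21.5 kb (5.81 and 7) and −10.7 kb (4.17 and 5.00), and EVI1 was called in both dox libraries at −10.7 kb and in neither at −21.5 kb.

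**Figure D3:**
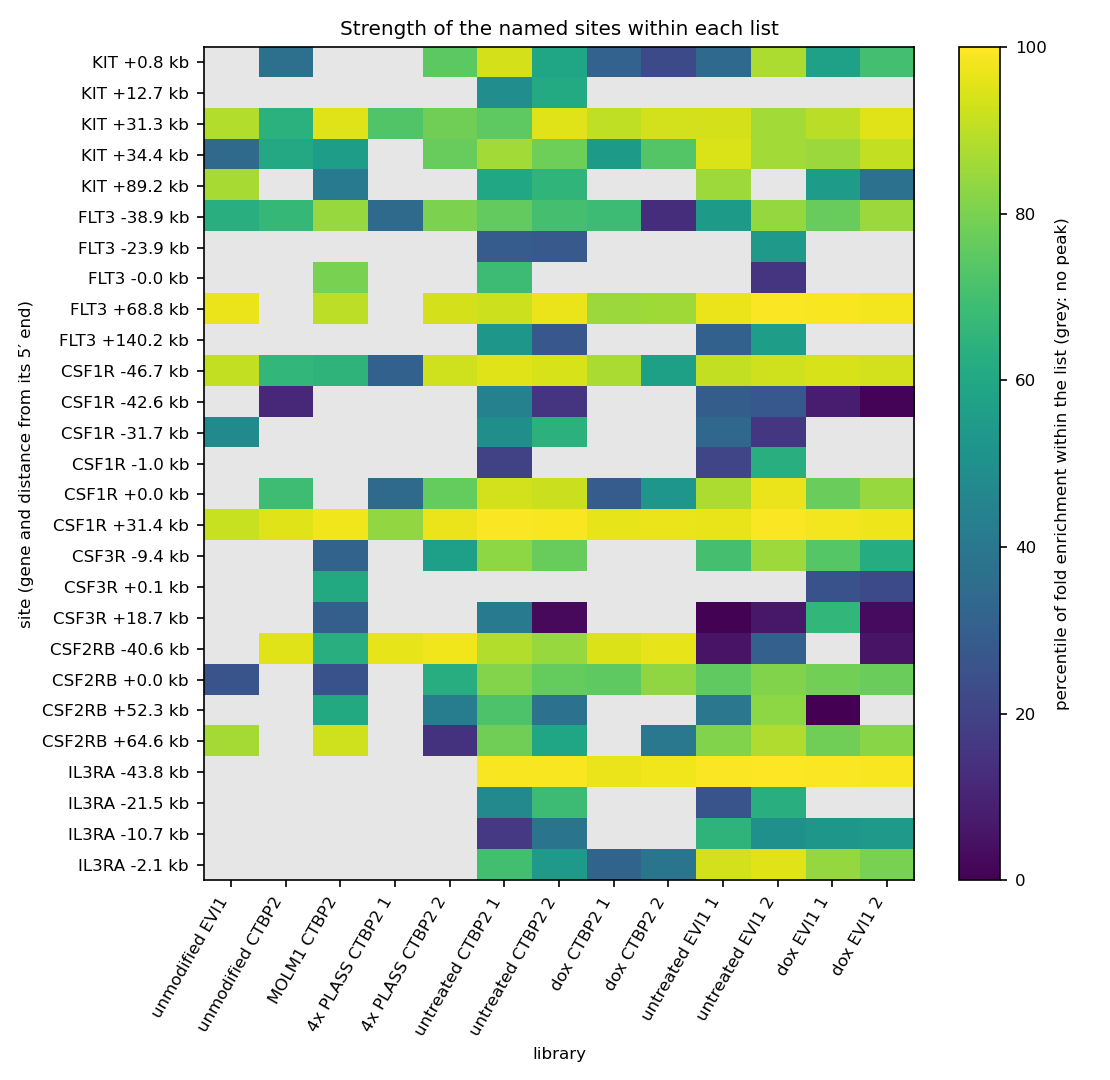
Percentile of fold enrichment within each list (colour, 0 to 100, grey where the list has no peak) for the named regions (rows, by gene and distance from its 5′ end) in the 13 lists (columns). CSF1R +31.4 kb stays above percentile 83 in all lists, from 83.6 to 99.4, and CSF2RB −40.6 kb is high in CTBP2 lists of MUTZ3 cells and low in EVI1 lists.

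In numbers, the 6 windows held 91 and 71 CTBP2 peaks in untreated cells and 33 and 36 in dox cells. The log2 ratio of the group means was −1.23, and the exact two-sided permutation p was 0.333, the smallest the design allows. The groups did not overlap for CSF1R, KIT, FLT3, CSF3R and IL3RA, and they overlapped for CSF2RB (11 and 7 against 4 and 8). How often the groups separate over all gene windows was not counted, so the separation cannot be read as particular to these genes. The whole CTBP2 lists went from 62232 and 56526 peaks to 24588 and 23878. As a share of each list, the windows held 0.146% and 0.126% without dox and 0.134% and 0.151% with it. For EVI1 the windows held 71 and 107 peaks without dox and 75 and 61 with it (log2 ratio −0.39, exact permutation p = 0.667). The difference in CTBP2 peak number moved with list size. With every CTBP2 list cut to its 23878 peaks of lowest p, the windows held 33 and 34 peaks without dox and 33 and 36 with it, and the log2 ratio was 0.04.

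Of the 51 CTBP2 sites, 26 were called in both dox libraries (51.0%, against 38.4% of all 37227 sites), 8 in 1 and 17 in neither (33.3%, against 41.0%). The 17 sites outnumber the 14 regions without a dox peak, because a region merged over all lists can hold several sites. Each dox library kept 30 sites, giving 58.8% ± 0 (SD, n = 2), and over all sites the kept share was 48.7% ± 3.03. The equal counts do not make the share stable. It was 35.7% without untreated CTBP2 replicate 2 and 31.6% for sites of either untreated library. By gene, both dox libraries held 4 of 6 KIT sites, 2 of 5 FLT3 sites, 9 of 18 CSF1R sites, 3 of 6 CSF3R sites, 2 of 5 CSF2RB sites and 6 of 11 IL3RA sites. Sites of a window are not independent, and the difference from all sites was not tested. In lists of equal size the kept share was 86.0% ± 8.49 in the windows and 77.2% ± 3.02 over all sites.

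Strength went along with being kept. When all CTBP2 sites were ranked by their untreated replicate 1 value and divided into 5 bins, the top bin held 12 sites of the windows and both dox libraries kept 12 of them, while the mean kept share over every site of that bin was 87.6%. The bottom bin held 9 sites of the windows, of which each dox library kept 2, or 22.2% against 23.9%. Promoter sites in the windows were called in both dox libraries in 6 of 9 cases (44.7% of all promoter sites) and distal sites in 20 of 42 (36.2%). No CTBP2 site was gained: 0 of 28 sites of both dox libraries had no untreated peak, against 0.96% over all sites.

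At the 26 CTBP2 sites called in all 4 libraries, the median log2 ratio of dox to untreated fold enrichment was −0.89, and it was −0.88 over all such sites. Both dox values were below both untreated values at 19 of 26 sites (72.5% over all sites) and above at 0 (1.96%). The values at the 6 genes and over the lists as a whole were thus close, on the scale of fold enrichment.

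For EVI1 the kept share was higher in value. Of 58 EVI1 sites, 43 were called in both dox libraries (74.1%, against 78.1% of all 40449), 8 in 1 and 7 in neither (12.1%, against 9.01%), and the kept share was 81.0% ± 4.88 (SD, n = 2), against 84.5% ± 5.20. Both dox libraries held 8 of 9 promoter sites (91.3% over all) and neither held the remaining 1 (2.76%), and distal sites were held in 35 of 49 cases (73.6%). At the 43 sites called in all 4 libraries the median log2 ratio was −0.31 (−0.25 over all sites), with both dox values below both untreated values at 16 (35.3% over all) and above at 7 (13.4%). The difference between CTBP2 and EVI1 in kept share was not tested, since libraries of the targets differ in antibody and list size.

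**Figure D4:**
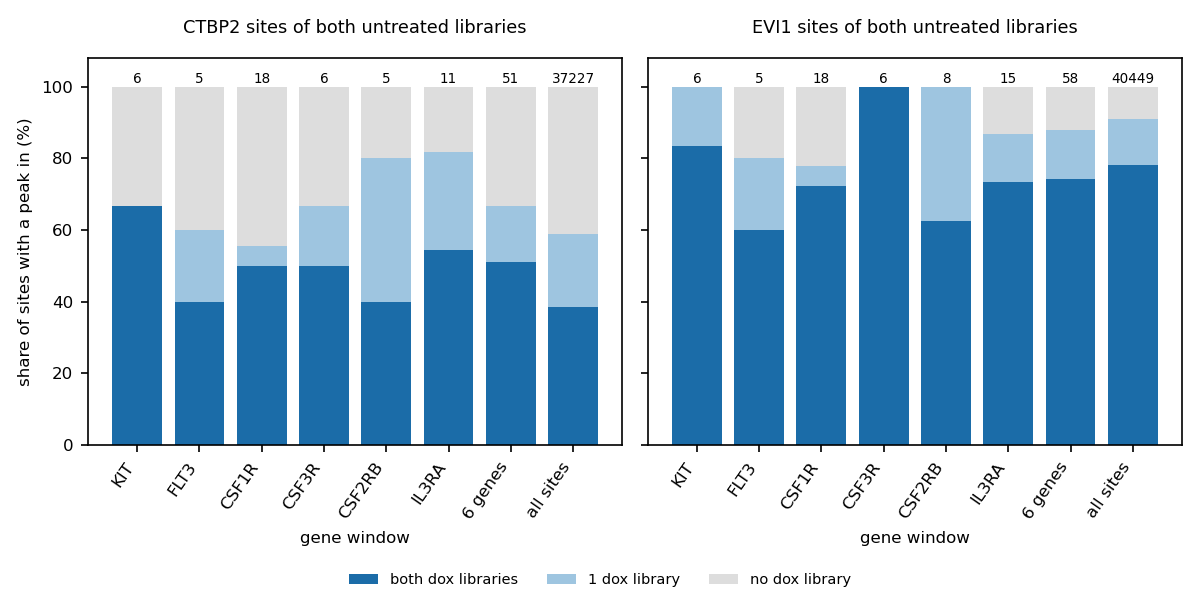
Share of CTBP2 sites (left) and EVI1 sites (right) of both untreated libraries that had a peak in both, 1 or no dox library (vertical axis, percent), for each gene window, for the 6 genes together and for all sites, with the number of sites above each bar. For CTBP2, 51.0% of the sites of the 6 genes and 38.4% of all sites were in both dox libraries, and for EVI1 the shares were 74.1% and 78.1%.

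CTBP2 and EVI1 lay at mostly the same places. In untreated inducible cells 45 of 51 CTBP2 sites (88.2%, Wilson 76.6% to 94.5%) overlapped an EVI1 site, against 82.5% of all CTBP2 sites, and 43 of 58 EVI1 sites (74.1%, 61.6% to 83.7%) overlapped a CTBP2 site, against 75.9%. Of CTBP2 sites, those with an EVI1 site were 6 of 6 for CSF3R, 5 of 5 for CSF2RB, 11 of 11 for IL3RA, 15 of 18 for CSF1R, 4 of 5 for FLT3 and 4 of 6 for KIT. Of EVI1 sites, those with a CTBP2 site were 6 of 6 for CSF3R, 5 of 8 for CSF2RB, 11 of 15 for IL3RA, 13 of 18 for CSF1R, 4 of 5 for FLT3 and 4 of 6 for KIT. The median distance between CTBP2 and EVI1 summits of overlapping peaks was 38.5 bp in replicate 1 and 78.5 bp in replicate 2 (57 and 75 bp over all). Neither of the dox lists, which are shorter, had a CTBP2 peak at 17 sites, of which 7 had an EVI1 peak in both dox libraries (41.2%, against 52.3% of all such sites). Of the 14 merged regions with no dox CTBP2 peak, 5 had EVI1 in both dox libraries: KIT +89.2 kb, CSF1R −42.6 kb, CSF3R −9.4 and +18.7 kb, and IL3RA −10.7 kb.

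In unmodified MUTZ3 cells the overlap was lower in value. There 11 of 22 CTBP2 peaks of the windows (50.0%, Wilson 30.7% to 69.3%) overlapped an EVI1 peak, against 54.5% of all, and 11 of 24 EVI1 peaks (45.8%, 27.9% to 64.9%) overlapped a CTBP2 peak, against 43.0%. With EVI1 sites of the untreated inducible cells in place of the unmodified EVI1 list, the share of CTBP2 peaks was 90.9%. The unmodified lists were single and shorter (16836 CTBP2 and 21505 EVI1 peaks), and their labelled crosslinks differed. List length, crosslink and cells cannot be told apart when they are set against the inducible cells. Of the 22 CTBP2 peaks, 12 (54.5%, 34.7% to 73.1%) overlapped a MOLM1 peak, against 70.2% of all, and 13 of 57 MOLM1 peaks (22.8%, 13.8% to 35.2%) overlapped an unmodified MUTZ3 peak, against 18.7%. Both background shares lay within these intervals. The 8 peaks of 4× PLASS replicate 1 all overlapped a peak of replicate 2, against 88.7% of its whole list.

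Other genes of the same pathways kept CTBP2 sites in shares around that of all genes, but their windows held more sites. Median CTBP2 sites per window were 7 for other receptors, 5.5 for ligands, 9.5 for signalling and 9 for negative regulators, against 3 for all genes. Promoter calls, given below, were also more frequent for signalling genes and negative regulators. All 20 other blood cytokine receptors, 9 of 10 ligands, 16 of 16 signalling proteins and 11 of 11 negative regulators had a CTBP2 site, and the same numbers had an EVI1 site, against 86.0% and 87.1% of all genes. Among ligands IL6 had neither, though some CTBP2 list had a peak in its window. CTBP2 sites of both untreated libraries remained in both dox libraries in 53 of 159 cases for the other receptors (33.3%), 21 of 53 for the ligands (39.6%), 62 of 148 for signalling (41.9%) and 40 of 96 for negative regulators (41.7%). Over the windows of all genes the count was 32991 of 90067 (36.6%), with sites counted once per gene window, and for the 6 receptor genes it was 51.0%. The windows of PDGFRB and CSF2RA, counted among the other receptors, overlap those of CSF1R and IL3RA, so these are not separate sets. Neighbouring genes within a list can also share sites. These differences were not tested.

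The strongest CTBP2 sites among these genes were at CSF2RA (43.2 in untreated replicate 1), whose window overlaps that of IL3RA, and IL2RA (36.0) among the receptors, and FLT3LG (30.1), the ligand of FLT3, and EPO (24.6), the red cell hormone, among the ligands. In signalling they were LYN (59.8), a SRC family kinase, and TYK2 (35.7), a Janus kinase. Among negative regulators they were SOCS1 (37.3) and CISH (36.5), both inhibitors of cytokine signalling. The promoter was called for CTBP2 in all 4 libraries for 3 of 20 other receptors, 1 of 10 ligands, 9 of 16 signalling genes and 8 of 11 negative regulators, against 23.9% of all genes. The ligand was KITLG, which binds KIT and was named after its values were seen.

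The genes whose strongest peaks had percentiles most like those of a member over the 13 lists were BAHCC1 for KIT (mean absolute difference 3.31 percentile points), P2RX3 for FLT3 (2.00), RREB1 for CSF1R (1.13), PACS1 for CSF3R (3.90), APBB3 for CSF2RB (3.53) and AC006014.1 for IL3RA (0.25). SLC35A4 had the same value as APBB3 for CSF2RB. For IL3RA the 5 lists without a peak count as 0 for both genes.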

How the data were processed

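ChIP-seq peak lists of 13 libraries were used. Per the submitters' processing notes and the study's methods, the authors aligned reads to hg19 with Bowtie 1.1.1 and ran MACS2 2.1.2 at default settings on every library with an input. The deposited fold enrichment is a ratio of signal at the summit to local background. Values of −log10 p (p-value) and −log10 q (q-value) in the deposited lists served only to order or filter peaks, and the deposited score, a display value, was not used. Depth is unknown.

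The 6 genes and all gene lists were chosen with earlier results of these data known. Peaks overlapping the gene body plus 50 kb (GENCODE release 44 on GRCh37) by at least 1 bp were counted. A promoter was 1 kb on either side of a gene's 5′ end. The regions named are each gene's promoter, its distal regions of highest CTBP2 and EVI1 fold enrichment in untreated replicate 1, and up to 2 regions with CTBP2 in both untreated libraries and in no dox library. Regions called in all 13 lists, and the other regions named, were added after values were seen. The sequence and values of 1 region that this rule names are not reported here. In each pathway list the 2 genes of highest CTBP2 fold enrichment in untreated replicate 1 were named. Shares have Wilson 95% intervals, spreads are SDs over 2 libraries, and peak numbers were compared by exact two-sided permutation tests (scipy). The overlap functions were tested on simulated lists. Alternatives were stricter −log10 q or fold enrichment (at least 5), windows of 20 or 100 kb, nearest-gene assignment, lists of equal size, and leaving out each replicate. Leaving out each gene window in turn, canonical start sites and crossed replicate numbers were added after seeing the data. Analyses used Python 3.11.15 with numpy 2.4.6, pandas 2.3.3 and scipy 1.17.1.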

Additional observations from a re-analysis of the deposited data

Results flagged for a closer look

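Peaks on the Y chromosome copy of the IL3RA window lay outside every comparison above. They numbered 27 and 15 for CTBP2 without dox and 7 and 8 with it, and 22 and 33 for EVI1 without dox and 17 and 13 with it. The 5 lists from outside the inducible experiment had 0 there. On the X copy the same libraries held 22 and 11, 8 and 8, 18 and 40, and 18 and 13 peaks, so the copies had similar numbers in each library. How reads that match both copies were placed was not tested.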

How the results depend on the processing

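The lists have no read counts and at most 2 libraries per group, so no result could pass a threshold. The log2 ratio of CTBP2 peak numbers kept its sign under 12 of 13 alternatives, and reversed to 0.0424 with lists of equal size; leaving out a library gave −1.40 to −1.04. The EVI1 ratio stayed below 0 under all 14, from −0.50 to −0.04 (−0.65 to −0.06 without a library). Requiring 50% overlap of the shorter peak moved none of the 6 shares it was applied to.

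The CTBP2 kept share, 58.8%, became 53.8% at −log10 q of at least 5, 51.5% at fold enrichment of at least 5, 65.6% and 53.0% in windows of 20 and 100 kb, 61.1% by nearest gene, 56.3% without IL3RA, 31.6% for sites of either library and 86.0% at equal size. Leaving out the window of KIT, FLT3, CSF1R, CSF3R or CSF2RB gave 57.8%, 59.8%, 62.1%, 58.9% and 58.7%. Leaving out a library gave 35.7% to 58.8%, lowest without untreated replicate 2 and 43.7% without untreated replicate 1, where a site then needs 1 library. The EVI1 kept share, 81.0%, became 89.5% at 20 kb and 48.6% for either library, and 50.0% (without untreated replicate 1) to 84.5% without a library. EVI1 overlap of CTBP2 sites became 73.5% at fold enrichment of at least 5 and 63.7% to 92.2% without a library. With EVI1 sites of inducible cells, the overlap in unmodified cells was 90.9%. The promoter share ran from 13.2% to 15.5% without an untreated CTBP2 library. The cause of these changes was not tested beyond how each alternative is built.

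Replicate numbers were shared, but no label says that they mark a pairing, and deviations of same-numbered libraries correlated at 0.21 for CTBP2 and −0.23 for EVI1. With the replicate number as a block the log2 ratio was −1.22 (p = 0.5, exact permutation over 2 pairs) for CTBP2 and −0.37 (p = 1) for EVI1, and kept shares, computed within pairs, were 39.4% and 61.9%. Crossed numbers for EVI1 gave −0.37 (exact p = 0.5) and 61.4%.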
